A study of Mus musculus with 8 samples.

Results

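Tumour-infiltrating CD8 T cells that carried both PD1 and Tim3 were compared with those that carried PD1 without Tim3, in bulk RNA sequencing libraries labelled WT. The 2 WT PD1+Tim3+ and 2 WT PD1+Tim3- libraries were chosen by their labels alone and are 4 of the 8 libraries in the series. The tumours were B16-OVA, a mouse melanoma line that makes ovalbumin, put under the skin of Rag2-/- mice, hosts that lack T and B cells and keep NK and myeloid cells. CD8 T cells were transferred 10 days after the tumour cells and recovered from the tumour 10 days later by a sort on CD3e, CD8, PD1 and Tim3, and each sample holds the cells of 1 implanted mouse. The other 4 libraries come from the same gates, with donors of the genotype Cd8-Cre Nr4a1 flox/flox Nr4a2 flox/flox and the OT-I transgene (Tg/+), a T cell receptor specific for ovalbumin. They are labelled dKO for loss of the nuclear receptor genes Nr4a1 and Nr4a2, and are used here for the shared estimate of the spread and as a second pair of populations. Whether WT donors carried OT-I is not in the labels, nor is whether the PD1+Tim3- and PD1+Tim3+ cells with one replicate number came from the same mouse.

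CD8 T cells that keep meeting their antigen in a tumour pass into exhaustion, a state of sustained inhibitory receptors and reduced function. A stem-like fraction, which depends on the transcription factor TCF1 encoded by Tcf7, renews itself and gives rise to Tim3-bearing cells that carry more granzymes and have lost most of that capacity. PD1 is found on both fractions, and Tim3, the product of Havcr2, is widely used to part them. The question put to the 4 WT libraries is which genes differ between these fractions within one tumour model.

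Total counts were 7828156 and 4801738 in the WT PD1+Tim3- libraries and 5489394 and 13418762 in the WT PD1+Tim3+ libraries, and they ran from 1944999 to 13418762 over all 8. The PD1+Tim3- pair was the less alike of the 2 WT pairs, with a chi-square per gene of 16.1 against 3.14, both above the sampling noise, so no library was taken for a copy of another. Replicate 1 of WT PD1+Tim3- stood apart by a group of genes described below. Ribosomal RNA, counted as Rn45s and Rn18s, made up 2.37% and 2.36% of the PD1+Tim3- and 6.52% and 7.46% of the PD1+Tim3+ libraries of WT. Without these genes 2210 genes were called in WT, against 2223 with them.

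Levels are given as CPM, counts scaled to a common library total with TMM factors, in replicate 1 and then replicate 2. Differences are log2 fold changes of PD1+Tim3+ over PD1+Tim3- with their standard error (SE), and a gene is called when its adjusted p from edgeR's quasi-likelihood test was under 0.05. Havcr2 stood at 3.55 and 2.28 CPM in PD1+Tim3- and 41.8 and 43.6 CPM in PD1+Tim3+ cells of WT, a log2 fold change of 3.82 ± 0.18 (adjusted p 2.69e-06). The groups are far apart, and since Tim3 protein set the gate this checks the labels and is no finding. Pdcd1, which encodes PD1 and was required in both gates, stood at 67.3 and 44.98 against 49.3 and 50.4 CPM and was not called (-0.18 ± 0.17, adjusted p 0.482). Its lowest and highest values were both in PD1+Tim3- libraries, so the groups overlap. Cd8b1 and Cd3e, which encode the CD8 beta chain and a chain of the CD3 complex, were not called at 0.29 ± 0.12 and 0.33 ± 0.12. Cd8a, for the CD8 alpha chain, stood at 854 and 899.7 against 1223 and 1114 CPM and was called at 0.41 ± 0.12 (adjusted p 0.0389). Cd4 had 1 read in the 4 WT libraries together. Cd8a (log2 0.34 to 0.48 over the 8 left-out libraries) lost its call when any 1 of the 4 WT libraries or either labelled dKO PD1+Tim3- library was left out. DESeq2 did not call Cd8a.

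The promoters of Havcr2, the gene of the gate, and of the granzyme gene Gzmb, a marker of the Tim3-bearing fraction, are shown with matches to motifs of AP-1 and RUNX factors, families that act at effector genes. Each sequence is the 250 bases before the start of transcription in RefSeq on build GRCm38.p6, read 5′ to 3′ on the strand of the gene. The Havcr2 stretch lies at chr11:46454681-46454930 on the forward strand and the Gzmb stretch at chr14:56262335-56262584 on the reverse strand. Capitals mark TGANTCA, an AP-1 motif that reads the same on both strands, and TGTGGTT, a RUNX motif, searched on both strands.
Havcr2: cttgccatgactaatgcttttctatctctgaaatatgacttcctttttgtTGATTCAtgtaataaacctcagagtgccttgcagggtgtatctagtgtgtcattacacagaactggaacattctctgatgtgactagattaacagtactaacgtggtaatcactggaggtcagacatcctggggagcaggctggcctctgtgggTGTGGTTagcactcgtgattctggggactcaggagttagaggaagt
Gzmb: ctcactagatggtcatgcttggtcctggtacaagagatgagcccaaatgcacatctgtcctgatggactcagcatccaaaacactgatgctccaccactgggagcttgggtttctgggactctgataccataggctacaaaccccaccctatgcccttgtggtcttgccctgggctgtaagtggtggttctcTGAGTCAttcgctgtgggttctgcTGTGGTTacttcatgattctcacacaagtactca
The AP-1 match begins 200 bases before the start in Havcr2 and 58 bases before it in Gzmb, and the RUNX matches begin 46 and 34 bases before it. Over all 32851 promoter windows of RefSeq, each 250 bases before to 50 bases after a start, 7.81% held the AP-1 letters and 5.27% the RUNX letters. Among windows of genes called higher 7.35% held the AP-1 letters, against 3.71% among genes called lower and 5.15% among those of all tested genes. For the RUNX letters these shares were 4.37%, 4.66% and 4.1%. A match describes these letters and not a bound site.

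Low counts removed all but 13073 of 24976 genes from the tests. In WT 2223 were called, 17% of those tested, with 1078 higher in PD1+Tim3+ cells (8.25%) and 1145 lower (8.76%). The counts given for gene lists below are to be read beside these shares. No called gene had overlapping WT groups, but lack of overlap is common with 2 libraries a group. Of all 13073 tested genes 4274 lay higher and 3966 lower without overlap, called or not. Of the called genes 291 of the higher and 597 of the lower changed by more than 2-fold, and the median over all tested genes was 0.01. The largest folds upward and downward were not alike. Past 4-fold stood 62 genes that rose and 6 that fell. With a library left out the count ran from 433 to 2773, and 323 genes, 209 higher and 114 lower, kept their call in all 8 such fits. Leaving out replicate 1 of WT PD1+Tim3- gave 551, and leaving out replicate 1 or 2 of WT PD1+Tim3+ gave 433 or 614. DESeq2 called 1314, of which 486 were higher and 828 lower.

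**Figure D1:**
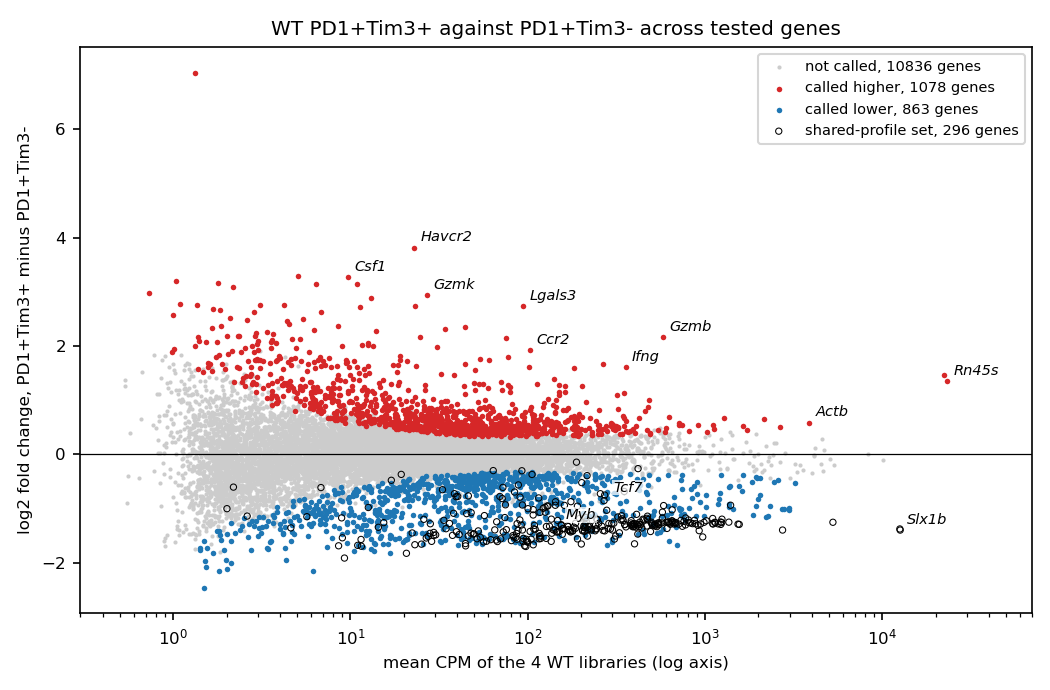
Log2 fold change of WT PD1+Tim3+ over PD1+Tim3- (vertical axis) against the mean CPM of the 4 WT libraries (log axis), 1 point per tested gene. Red points are the 1078 genes called higher, blue points the 863 called lower outside the shared-profile set, grey points are not called, and open circles are the 296 genes of that set, which lie below 0.

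A large part of the genes called lower followed 1 profile over the 8 libraries. Slx1b, which encodes a subunit of a structure-specific endonuclease, was one of them, at 25407 and 11226 CPM in WT PD1+Tim3- against 6122 and 7772 CPM in WT PD1+Tim3+ cells (-1.40 ± 0.33, adjusted p 0.0136). Dennd6b, which encodes a protein of membrane traffic, stood at 25414 and 10917 against 6505 and 7473 CPM, and Kif3a, for a kinesin motor, at 10423 and 4437 against 2757 and 3472 CPM. In each of these the first PD1+Tim3- replicate lies at over 2 times the level of the second. Among tested genes 296 correlated with Slx1b at a Pearson r over 0.95 across the 8 libraries, a set chosen after its values were seen and called the shared-profile set here. Of its members 282 were called lower and 0 higher, which is 24.6% of all genes called lower, beside 863 called lower outside it. The correlation includes the differences between the populations and Slx1b was itself called lower, so this direction follows from the choice. A slope of each gene on Slx1b, taken over differences between the 2 libraries of a group, uses no difference between groups. It was over 0.5 for 416 genes called lower (36.3%) and 14 called higher, against 6.05% of all tested genes. Its median was 0.81 in the set and 0.18 among genes called lower outside it. The set took 20.6% and 11.6% of counts in the WT PD1+Tim3- libraries, 6.98% and 7.97% in the WT PD1+Tim3+ libraries, 13.4% and 16.4% in the PD1+Tim3- libraries labelled dKO and 6.50% and 9.16% in the PD1+Tim3+ libraries labelled dKO. The share was thus higher in each PD1+Tim3- library than in any PD1+Tim3+ library, which the choice of the set favours. It differed between replicates too. With the log2 share of the set as a covariate 55 genes were called, 47 higher and 8 lower, and 54 of them were also called without it. Among these were Havcr2, Gzmb, Gzmk, Gzma, Ifng, Entpd1, Lgals3, Ccr2, Cxcr6, Mki67, Top2a, Rn45s, Tcf7, Myb and Il6st. What sets the level of these genes was not tested. Slx1b (log2 -1.87 to -0.68 over the 8 left-out libraries), Dennd6b (-1.86 to -0.64) and Kif3a (-1.74 to -0.50) did not pass without replicate 1 of WT PD1+Tim3- or either WT PD1+Tim3+ library.

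**Figure D2:**
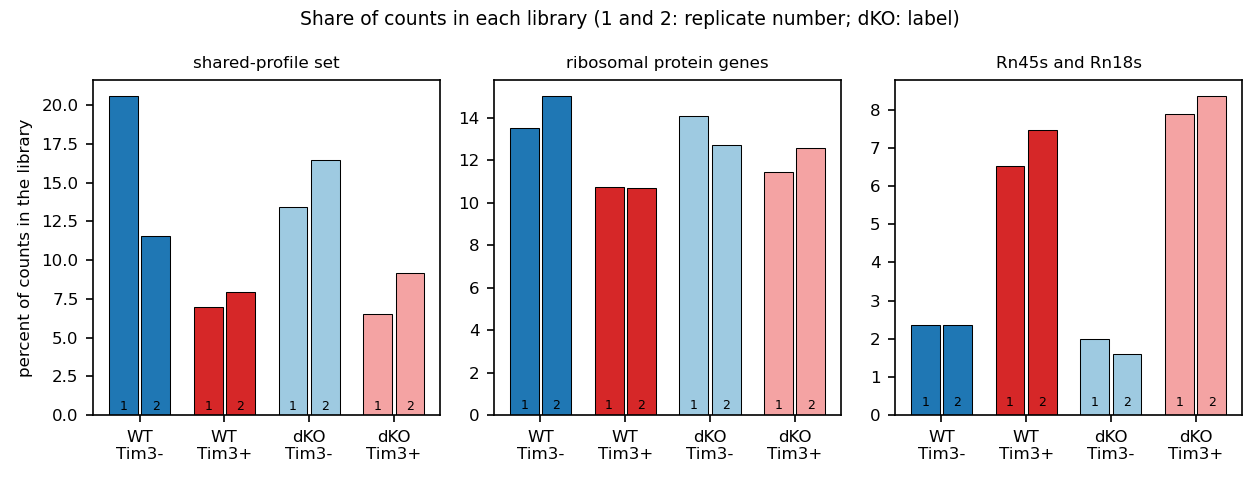
Percent of counts per library taken by the shared-profile set, by ribosomal protein genes and by Rn45s with Rn18s, 1 bar per library with its replicate number. In WT the shared-profile set takes 20.6% and 11.6% of PD1+Tim3- counts and 6.98% and 7.97% of PD1+Tim3+ counts, while Rn45s and Rn18s take more in PD1+Tim3+ libraries.

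Genes of killing rose in PD1+Tim3+ cells. Of 22 tested genes of cytotoxic granules and killing 13 rose and 0 fell, with a median of 0.74, and with a library left out 10 or more rose. Gzmb, which encodes granzyme B, a protease that starts apoptosis in target cells, stood at 204 and 219.9 CPM in PD1+Tim3- and 1013 and 884 CPM in PD1+Tim3+ libraries (2.16 ± 0.13, adjusted p 1.29e-05). Gzmk, for granzyme K, stood at 5.97 and 6.43 against 49.8 and 45.6 CPM, a rise of 2.94 ± 0.20 (adjusted p 1.80e-05). Gzma, for granzyme A, stood at 37.1 and 31.7 against 118 and 121 CPM (1.79 ± 0.12, adjusted p 1.80e-05). For all 3 granzymes both PD1+Tim3+ libraries lay at over 3 times the level of either PD1+Tim3- library. The ligand of the death receptor Fas, encoded by Fasl, rose from 22.5 and 26.9 to 83.999 and 83.2 CPM (1.77 ± 0.11, adjusted p 1.31e-05). Prf1, for the pore-forming protein perforin, rose less, from 33.7 and 37.7 to 59.7 and 63.7 CPM (0.80 ± 0.12, adjusted p 0.00247). In bulk samples a change in the share of cells that make a transcript and a change in its amount per cell cannot be told apart, here and in all that follows.

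**Figure D3:**
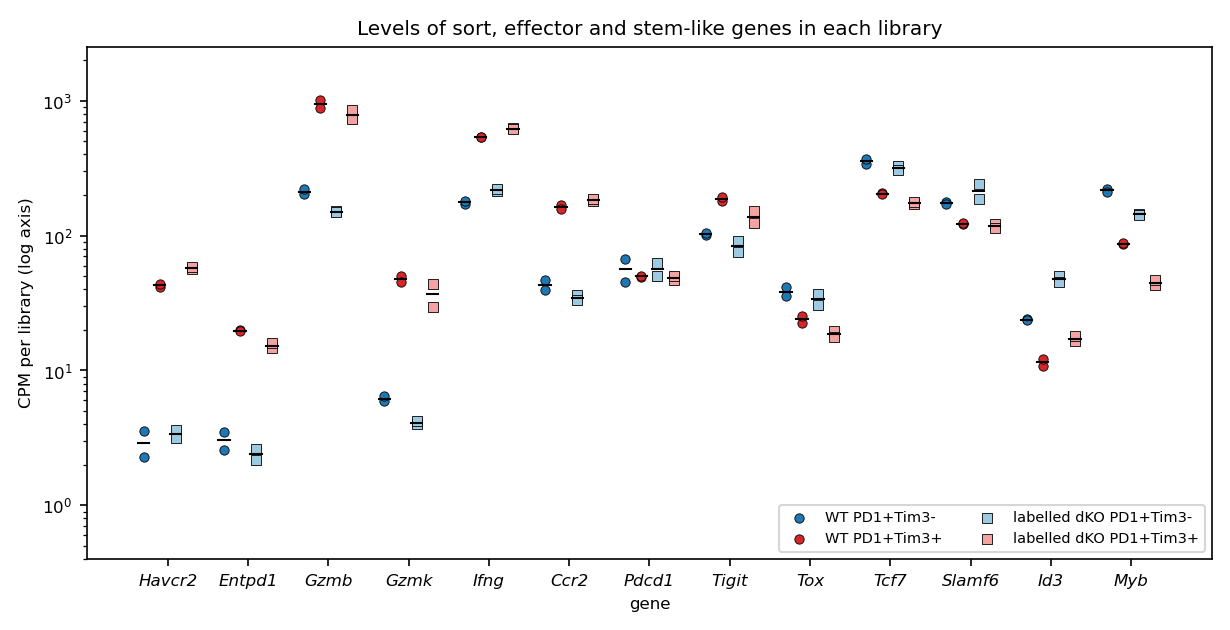
CPM of 13 genes (log axis), 1 point per library and a bar at the mean of the 2 libraries of a group, with circles for WT and squares for the libraries labelled dKO. In WT the red circles lie above the blue ones for Havcr2, Entpd1, Gzmb, Gzmk, Ifng, Ccr2 and Tigit and below them for Tox, Tcf7, Slamf6, Id3 and Myb, while those of Pdcd1 overlap.

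Secreted signals rose as well, with 17 of 26 tested cytokine and chemokine genes higher, 0 lower and a median of 0.67. Ifng, which encodes interferon gamma, stood at 171 and 182 CPM in PD1+Tim3- and 537 and 539 CPM in PD1+Tim3+ libraries (1.61 ± 0.11, adjusted p 1.86e-05). Csf1, for the growth factor of macrophages, rose from 1.42 and 2.28 CPM to 18.5 and 16.6 CPM (3.27 ± 0.30, adjusted p 1.37e-04). Among genes of at least 10 CPM in the higher population it had the largest rise after Havcr2. The chemokine gene Ccl3, whose product draws other leukocytes, stood at 72.7 and 82.3 against 205 and 202 CPM (1.40 ± 0.11, adjusted p 5.22e-05). Ccl4, its close relative, had a smaller change, at 429 and 489 against 640.4 and 613 CPM (0.45 ± 0.13). Tnf, for tumour necrosis factor, stood at 22.7 and 27.4 against 39.8 and 38.3 CPM (0.65 ± 0.12). Il17a, which encodes interleukin 17A and is the mark of another kind of T cell, is outside that list and was taken for its size of change. It rose from 2.13 and 4.35 to 23.5 and 22.5 CPM (2.89 ± 0.25, adjusted p 8.57e-05). With replicate 1 of WT PD1+Tim3- left out 5 rose, and with replicate 1 or 2 of WT PD1+Tim3+ left out 6 or 7. The call of Ccl4 (log2 0.37 to 0.55 over the 8 left-out libraries) was lost without replicate 1 of WT PD1+Tim3- or either WT PD1+Tim3+ library. Tnf (0.52 to 0.77) lost its call when replicate 1 of WT PD1+Tim3- or replicate 1 of WT PD1+Tim3+ was left out. Ccl4 was not called by DESeq2.

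Stem-like and memory genes went the other way, with 18 of 28 tested genes lower, 1 higher and a median of -0.43. Tcf7, the gene of TCF1, stood at 342 and 372 CPM in PD1+Tim3- and 206 and 203 CPM in PD1+Tim3+ libraries (-0.80 ± 0.11, adjusted p 0.00169). Both PD1+Tim3+ libraries were thus lower, though they kept over 200 CPM. Myb, for a transcription factor that sustains stem-like cells, fell from 222 and 209.8 to 86.5 and 87.4 CPM (-1.31 ± 0.10, adjusted p 3.59e-05). Id3, for an inhibitor of E proteins found in memory precursors, fell from 23.9 and 23.6 to 10.9 and 12.1 CPM (-1.03 ± 0.13, adjusted p 0.00133). These 3 genes kept their call whichever library was left out. Larger folds were measured for Dapl1 at -1.67 ± 0.25 and Il6ra at -1.52 ± 0.26, the latter for the receptor of interleukin 6, whose signalling partner Il6st fell by 1.16 on the log2 scale. Slamf6, a surface marker of stem-like cells, was called at a smaller change, 176 and 170.2 against 122 and 123 CPM (-0.50 ± 0.13, adjusted p 0.0196). Cxcr5, the receptor that guides cells to follicles, fell from 11.9 and 12.4 to 7.14 and 4.93 CPM (-1.08 ± 0.23). Il7r, for the receptor of interleukin 7, stood at -0.48 ± 0.12 and Lef1, for a relative of TCF1, at -0.35 ± 0.10. Ccr7, which guides cells into lymph nodes, was not called, at 134 and 141 against 124 and 119.8 CPM (-0.17 ± 0.10, adjusted p 0.27003). With a library left out the number that fell was lowest at 8, without replicate 1 of WT PD1+Tim3- or replicate 2 of WT PD1+Tim3+, and it was 9 without replicate 1 of WT PD1+Tim3+. Il6ra (log2 -1.75 to -1.33 over the 8 left-out libraries) did not pass without replicate 1 of WT PD1+Tim3-. The call of Slamf6 (-0.53 to -0.47) and Il7r (-0.58 to -0.36) was lost without replicate 1 of WT PD1+Tim3- or either WT PD1+Tim3+ library. Cxcr5 (-1.30 to -0.76) lost its call when replicate 1 of WT PD1+Tim3- or replicate 2 of WT PD1+Tim3+ was left out. Lef1 (-0.38 to -0.31) did not pass without any 1 of the 4 WT libraries or replicate 2 of labelled dKO PD1+Tim3-. Lef1 was not called by DESeq2.

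Transcription factors of effector and exhausted cells rose in part in PD1+Tim3+ cells, with 15 of 31 tested genes called higher, 2 lower, 14 not called and a median of 0.24. Prdm1, which encodes Blimp-1, a repressor that drives terminal differentiation, stood at 6.82 and 3.73 against 15.3 and 17.9 CPM (1.61 ± 0.25, adjusted p 0.00306). Tbx21, for T-bet, which drives Ifng and granzymes, rose from 72.5 and 74.01 to 117 and 119 CPM (0.69 ± 0.10, adjusted p 0.00214). Its relative Eomes did not follow, at 55.6 and 62.4 against 57.6 and 55.8 CPM (-0.05 ± 0.13, adjusted p 0.806), and its groups overlap. Rora, for a nuclear receptor, rose from 47.8 and 42.9 to 116 and 104 CPM (1.28 ± 0.11, adjusted p 7.76e-05). Bhlhe40, for a repressor that supports cytokine output in T cells, rose from 216 and 218 to 501 and 454 CPM (1.14 ± 0.12, adjusted p 2.76e-04), and Runx2 from 92.4 and 101 to 227 and 184 CPM (1.09 ± 0.12, adjusted p 5.12e-04). Each of these 5 risers kept its call in all 8 fits with a library left out. Tox, the factor that establishes exhaustion, went down and not up, from 35.4 and 41.3 to 22.6 and 25.6 CPM (-0.65 ± 0.13, adjusted p 0.00854). The NR4A genes, which T cell receptor signals induce, did not differ by the test, with Nr4a1 at 979 and 824 against 803 and 789 CPM (-0.18 ± 0.13, adjusted p 0.366), Nr4a2 at 0.05 ± 0.11 and Nr4a3 at 0.11 ± 0.11. Of the list 9 genes rose when replicate 1 of either WT population was left out, and 11 with DESeq2. The call of Tox (log2 -0.75 to -0.54 over the 8 left-out libraries) was lost without either WT PD1+Tim3+ library.

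Inhibitory receptors beside Tim3 did not move as one group. Of 23 tested genes 7 rose, Havcr2 among them, 1 fell and 15 were not called, with a median of 0.38. Klrg1, which encodes a receptor of short-lived effector cells, rose from 2.27 and 1.45 to 10.7 and 12.9 CPM (2.63 ± 0.34, adjusted p 0.00133). Tigit, a receptor that competes with CD226 for the same ligands, rose from 101 and 104 to 179.9 and 194 CPM (0.87 ± 0.13, adjusted p 0.00224), and Cd226 itself stood at 119 and 118 against 173 and 171 CPM (0.54 ± 0.11). Pvrig, a further receptor of that axis, stood at 2.13 and 4.15 against 9.86 and 10.9 CPM (1.80 ± 0.36). Tigit, Cd226 and Pvrig were therefore each higher in both PD1+Tim3+ libraries. Lilrb4a rose from 86.3 and 86.2 to 165 and 151 CPM (0.87 ± 0.10, adjusted p 7.58e-04). Lag3, which binds MHC class II, was called at a small change, 204 and 228 against 294 and 269.8 CPM (0.38 ± 0.12, adjusted p 0.0459). Ctla4, which competes for the ligands of CD28, was not called, at 393 and 392 against 472 and 442 CPM (0.22 ± 0.11, adjusted p 0.206). Btla, which binds HVEM, was the 1 receptor of the list that fell, from 88.7 and 79.2 to 41.3 and 40.2 CPM (-1.05 ± 0.14, adjusted p 0.00141). Cd226 (log2 0.53 to 0.55 over the 8 left-out libraries) lost its call when replicate 1 of WT PD1+Tim3- or either WT PD1+Tim3+ library was left out. Pvrig (1.34 to 2.28) did not pass without replicate 1 of WT PD1+Tim3- or replicate 2 of WT PD1+Tim3+. The call of Lag3 (0.31 to 0.46) was lost without any 1 of the 4 WT libraries or either labelled dKO PD1+Tim3- library. Lag3 was not called by DESeq2.

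Entpd1, which encodes the ectonucleotidase CD39 and marks terminally exhausted cells, stood at 2.56 and 3.52 CPM in PD1+Tim3- and 19.9 and 19.6 CPM in PD1+Tim3+ libraries (2.72 ± 0.21, adjusted p 3.53e-05). Cd38, another ectoenzyme of such cells, moved less, from 11.8 and 10.99 to 20.2 and 16.6 CPM (0.66 ± 0.18, adjusted p 0.0295). The 12 tested genes of the list for ectoenzymes of nucleotide metabolism include Adk, whose product acts inside the cell. Of these genes 2 were called higher and 3 lower, with a median of -0.12. With any 1 WT library left out 1 of them rose, while 1 fell without either PD1+Tim3- library and 0 without either PD1+Tim3+ library. Art2b, for an enzyme that uses NAD on the cell surface, fell from 12.7 and 13.7 to 6.802 and 8.14 CPM (-0.78 ± 0.18), and Adk, for adenosine kinase, from 48.5 and 52.9 to 33.3 and 34.1 CPM (-0.58 ± 0.11). Cd38 (log2 0.53 to 0.83 over the 8 left-out libraries) and Art2b (-0.94 to -0.69) lost their call when any 1 of the 4 WT libraries was left out. Adk (-0.64 to -0.52) did not pass without either WT PD1+Tim3+ library. Cd38 and Art2b were not called by DESeq2.

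Genes of the effector-like subset that bears CX3CR1 rose in PD1+Tim3+ cells, 10 of 15 tested with 0 lower and a median of 0.67. Lgals3, which encodes galectin-3, a sugar-binding protein, stood at 22.2 and 26.9 against 176 and 151 CPM (2.74 ± 0.18, adjusted p 1.31e-05). Cx3cr1 itself was low and rose from 5.69 and 4.35 to 12.9 and 11.4 CPM (1.23 ± 0.22, adjusted p 0.00514). Tissue residency genes rose too, 7 of 14 tested with 0 lower and a median of 1.01. Itga1, for the alpha chain of the collagen-binding integrin CD49a, stood at 7.54 and 9.33 against 27.2 and 25.6 CPM (1.66 ± 0.20, adjusted p 6.85e-04). Itgae, for the alpha chain of the integrin CD103 that holds cells in epithelia, was not called, at 2.42 and 2.07 against 4.93 and 3.86 CPM (0.90 ± 0.38, adjusted p 0.135). Cxcr6, a receptor that keeps T cells in tissue, rose from 82.9 and 101 to 283 and 267 CPM (1.59 ± 0.14, adjusted p 7.76e-05), and Rgs1, which dampens chemokine receptor signals, from 122 and 118 to 229.9 and 204 CPM (0.85 ± 0.12). Members of both lists were thus higher in the same libraries. With a library left out at least 7 and 6 genes of the lists rose.

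Among chemokine receptors and homing genes 10 of 24 tested rose and 3 fell, with a median of 0.34. Ccr2, the receptor that leads cells to sites of inflammation, stood at 39.5 and 47.1 CPM in PD1+Tim3- and 169 and 157 CPM in PD1+Tim3+ libraries (1.92 ± 0.12, adjusted p 1.29e-05). A receptor for inflamed tissue was thus higher, while Cxcr5, a receptor for lymphoid organs, was lower and Ccr7 was not called. Cxcr3, for a receptor of interferon-induced chemokines, rose from 75.1 and 88.3 to 122 and 116 CPM (0.55 ± 0.11), and Ccl5 stood at 976 and 983 against 1644 and 1491 CPM (0.68 ± 0.20). The number of genes that rose fell to 4 without replicate 1 of WT PD1+Tim3- or replicate 1 of WT PD1+Tim3+ and to 6 without replicate 2 of WT PD1+Tim3+. Integrins and adhesion genes rose in 12 of 24 tested with 0 lower and a median of 0.60, among them Itgax, the alpha chain of CD11c, from 24.7 and 22.2 to 47.3 and 46.1 CPM (0.98 ± 0.12, adjusted p 6.68e-04), and Cd99 from 89.004 and 105 to 174 and 187 CPM (0.90 ± 0.12). In that list 8 rose without either WT PD1+Tim3- library, and 5 and 6 without replicate 1 and 2 of WT PD1+Tim3+. The call of Cxcr3 (log2 0.44 to 0.67 over the 8 left-out libraries) was lost without replicate 1 of WT PD1+Tim3- or either WT PD1+Tim3+ library. Ccl5 (0.60 to 0.75) lost its call when any 1 of the 4 WT libraries was left out. Cxcr5 (-1.30 to -0.76) did not pass without replicate 1 of WT PD1+Tim3- or replicate 2 of WT PD1+Tim3+.

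NK-type receptor genes rose in 8 of 18 tested, with 0 lower, 17 positive and a median of 0.72. Klrc1, which encodes the inhibitory receptor NKG2A, stood at 321 and 320.3 against 679 and 613 CPM (1.01 ± 0.13, adjusted p 0.00133). Its partner CD94, encoded by Klrd1, was not called, at 444 and 414 against 449 and 421 CPM (0.02 ± 0.12, adjusted p 0.929), with overlapping groups. Klre1 rose from 20.2 and 13.3 to 50.8 and 45.8 CPM (1.49 ± 0.19, adjusted p 0.00133) and Fcer1g, which encodes a signalling chain of NK and myeloid receptors, from 3.41 and 2.49 to 10.9 and 9.57 CPM (1.74 ± 0.31, adjusted p 0.00483). Ncr1, which marks NK cells, had 0, 0, 0 and 3 reads in the WT libraries. The number of receptors that rose was 4 when replicate 1 of WT PD1+Tim3+ was left out, and 5 when replicate 1 of WT PD1+Tim3- or replicate 2 of WT PD1+Tim3+ was.

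Cytokine receptors and their feedback genes were divided by family. Of 30 tested 12 rose and 5 fell, with a median of 0.14. Il18r1 and Il18rap, the 2 chains of the receptor for interleukin 18, rose together, from 87.01 and 88.5 to 214 and 210.4 CPM (1.27 ± 0.11, adjusted p 7.76e-05) and from 105 and 97.2 to 213 and 234 CPM (1.15 ± 0.13, adjusted p 5.22e-04). Il2ra and Il2rb, chains of the interleukin 2 receptor, rose by 0.77 ± 0.10 and 0.71 ± 0.11. Against these, both chains of the interleukin 6 receptor fell, Il6ra by 1.52 and Il6st by 1.16 on the log2 scale, where Il6st stood at 73.5 and 73.8 against 31.1 and 34.3 CPM. Cish, which STAT5 induces and which restrains signals of interleukin 2, rose from 46.4 and 53.9 to 155 and 150.4 CPM (1.61 ± 0.13, adjusted p 5.22e-05), and Socs2, of the same family, from 4.12 and 3.94 to 14.5 and 11.2 CPM (1.62 ± 0.27, adjusted p 0.003403). With replicate 1 of WT PD1+Tim3- left out 1 fell, and with replicate 1 or 2 of WT PD1+Tim3+ left out 2 or 3, while 8 or more rose. The call of Il2rb (log2 0.62 to 0.80 over the 8 left-out libraries) was lost without replicate 1 of WT PD1+Tim3+. Il6ra (-1.75 to -1.33) lost its call when replicate 1 of WT PD1+Tim3- was left out.

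Early genes that T cell receptor signals induce rose in part, 14 of 36 tested with 3 lower and a median of 0.28. The leading members were inhibitors of MAP kinase signals. Dusp5, for a phosphatase of ERK, stood at 162 and 245 against 401 and 467 CPM (1.10 ± 0.18, adjusted p 0.00336), and its replicates differed in both populations. Spry2, for an inhibitor of receptor signalling, rose from 14.5 and 13.3 to 27.4 and 27.6 CPM (0.98 ± 0.15, adjusted p 0.00298) and Dusp4 from 34.3 and 30.5 to 56.6 and 53.99 CPM (0.76 ± 0.12). Egr2, a factor of the same early wave, was not called, at 46.8 and 46.4 against 44.4 and 36.3 CPM (-0.22 ± 0.13, adjusted p 0.253). Genes that act inside the cell to restrain the receptor rose in 7 of 32 (21.9%) and fell in 3 (9.38%), with a median of 0.16. Over all tested genes 8.25% were called higher and 8.76% lower. The shares that fell among early genes (8.33%) and brakes are close to the latter. Dok2, for an adaptor that recruits RasGAP, rose from 36.1 and 41.05 to 66.5 and 72.6 CPM (0.86 ± 0.13, adjusted p 0.00244). With replicate 1 of WT PD1+Tim3-, replicate 1 of WT PD1+Tim3+ or replicate 2 of WT PD1+Tim3+ left out, 5, 4 and 5 early genes and 2, 3 and 4 brakes rose. Costimulatory and SLAM receptor genes were called higher in 9 of 24 and lower in 1 (Slamf6), with a median of 0.15. Tnfrsf9, for the receptor 4-1BB, stood at 211 and 219.5 against 304 and 288 CPM (0.46 ± 0.12), and Icos was not called (0.20 ± 0.11, adjusted p 0.241). Of the 9 receptors 1 and 4 were called with replicate 1 or 2 of WT PD1+Tim3- left out, 0 and 1 with replicate 1 or 2 of WT PD1+Tim3+ left out, and 4 by DESeq2. Tnfrsf9 (log2 0.42 to 0.50 over the 8 left-out libraries) did not pass without any 1 of the 4 WT libraries. The call of Slamf6 (-0.53 to -0.47) was lost without replicate 1 of WT PD1+Tim3- or either WT PD1+Tim3+ library. DESeq2 did not call Tnfrsf9.

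Cell cycle genes were higher in PD1+Tim3+ cells. Of 40 tested genes of mitosis and G2/M all 40 had a positive log2 fold change, 22 were called higher and 0 lower, with a median of 0.92. Mki67, which encodes the proliferation marker Ki-67, stood at 35.5 and 36.7 CPM in PD1+Tim3- and 74.5 and 93.3 CPM in PD1+Tim3+ libraries (1.23 ± 0.14, adjusted p 4.87e-04). Top2a, for the topoisomerase that untangles chromosomes, rose from 44.4 and 40.4 to 73.6 and 82.8 CPM (0.88 ± 0.13, adjusted p 0.00253). The groups do not overlap in either, and their 2 PD1+Tim3+ libraries differ, with replicate 2 the higher in both. Ccnb2, for cyclin B2, rose from 3.27 and 3.73 to 10.4 and 12.9 CPM (1.78 ± 0.28, adjusted p 0.00294), and Aurkb, for the mitotic kinase Aurora B, from 2.84 and 2.902 to 10.4 and 8.85 CPM (1.71 ± 0.25, adjusted p 0.00207). Of 38 DNA replication and S phase genes 18 rose and 2 fell, with a median of 0.49. Rrm2, which encodes the subunit of ribonucleotide reductase that limits the supply of deoxynucleotides, rose from 8.25 and 11.6 to 27.4 and 35.8 CPM (1.72 ± 0.19, adjusted p 4.64e-04), and Tk1, for thymidine kinase, from 6.26 and 6.22 to 16.7 and 21.2 CPM (1.63 ± 0.19, adjusted p 6.10e-04). Pcna, the sliding clamp, had a smaller change, at 282 and 295 against 354 and 392 CPM (0.37 ± 0.11). Ccne1, for cyclin E1, fell by 1.31 on the log2 scale and belongs to the shared-profile set. With replicate 1 of WT PD1+Tim3-, replicate 1 of WT PD1+Tim3+ or replicate 2 of WT PD1+Tim3+ left out, 9, 11 and 8 mitosis genes and 6, 9 and 4 S phase genes rose, and DESeq2 called 16 and 10. Pcna (log2 0.30 to 0.44 over the 8 left-out libraries) lost its call when any 1 of the 4 WT libraries or either labelled dKO PD1+Tim3- library was left out. Ccne1 (-1.69 to -0.78) did not pass without replicate 1 of WT PD1+Tim3- or either WT PD1+Tim3+ library. DESeq2 did not call Pcna.

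The promoters of Ccnb2 and Top2a are shown for the letters that many mitotic genes share, the CHR motif TTTGAA and CCAAT boxes, bound in dividing cells by the MuvB and NF-Y complexes. Ccnb2 lies at chr9:70421555-70421804 and Top2a at chr11:99024190-99024439, both on the reverse strand of GRCm38.p6 and both the 250 bases before the RefSeq start. Capitals mark both motifs, searched on both strands.
Ccnb2: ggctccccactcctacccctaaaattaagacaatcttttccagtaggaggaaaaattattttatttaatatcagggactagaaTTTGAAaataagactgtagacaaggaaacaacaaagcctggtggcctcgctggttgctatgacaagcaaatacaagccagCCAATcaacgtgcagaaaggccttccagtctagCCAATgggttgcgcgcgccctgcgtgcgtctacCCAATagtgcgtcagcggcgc
Top2a: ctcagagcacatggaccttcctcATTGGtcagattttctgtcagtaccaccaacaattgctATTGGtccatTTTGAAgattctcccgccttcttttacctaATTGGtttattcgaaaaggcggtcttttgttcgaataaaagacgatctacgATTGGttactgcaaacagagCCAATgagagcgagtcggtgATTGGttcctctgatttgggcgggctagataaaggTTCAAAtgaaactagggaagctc
In Ccnb2 a CHR match begins 167 bases before the start, and CCAAT begins 87, 54 and 21 bases before it. A further CHR match of Ccnb2 begins at base 5 after the start, past the stretch shown. Top2a holds CHR letters at 179 bases on the strand of the gene and at 23 bases on the other strand, with CCAAT at 78 bases on the strand of the gene and at 227, 189, 149, 98 and 58 bases on the other. Of 36 promoter windows of 34 mitosis genes that matched a RefSeq symbol, 29 held CHR (80.6%) and 30 held CCAAT (83.3%). Among all 32851 windows the shares were 17.9% and 37.4%, and among the 12354 windows of tested genes 13% and 38.1%. These letters were not tested against the changes in level.

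Inhibitors of the cycle rose beside it, with 8 of 21 genes of cell cycle inhibitors and D cyclins higher, 1 lower and a median of 0.32. Cdkn1a, which encodes p21, an inhibitor of cyclin-dependent kinases, stood at 62.7 and 68.2 against 155 and 167 CPM (1.30 ± 0.12, adjusted p 1.53e-04). Ccnd3, for cyclin D3, which drives entry into the cycle, rose from 40.5 and 46.9 to 98.6 and 99.05 CPM (1.18 ± 0.11, adjusted p 1.53e-04). An inhibitor and a driver were thus both higher in each PD1+Tim3+ library. The 8 genes fell to 4 without replicate 1 of WT PD1+Tim3- or either WT PD1+Tim3+ library.

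Glycolysis genes were higher in PD1+Tim3+ cells, with 10 of 23 tested called higher, 1 lower and a median of 0.38. Aldoa, for aldolase, stood at 315 and 355 CPM in PD1+Tim3- and 628 and 602 CPM in PD1+Tim3+ libraries (0.88 ± 0.13, adjusted p 0.001997). Slc2a3, for a glucose transporter, rose from 33.7 and 34.2 to 57.5 and 56.8 CPM (0.75 ± 0.12, adjusted p 0.00321), and Slc16a3, for a transporter that exports lactate, from 12.7 and 13.5 to 25.7 and 32.99 CPM (1.19 ± 0.17, adjusted p 0.00199). The way in, a middle step and the way out of the pathway were therefore all higher. Tpi1 rose by 0.74 ± 0.12, whereas Ldha, for the lactate dehydrogenase chain of activated T cells, was not called at 538 and 595 against 665 and 653 CPM (0.22 ± 0.12, adjusted p 0.243). Hypoxia response genes were called in 6 of 19 upward and 1 downward, with a median of 0.17, and the 1 that fell was Higd1a, for a mitochondrial protein, from 81.9 and 71.1 to 49.99 and 47.6 CPM (-0.66 ± 0.13). Without replicate 1 of WT PD1+Tim3- or either WT PD1+Tim3+ library 4 glycolysis genes and 0 or 1 hypoxia genes rose, and without replicate 2 of WT PD1+Tim3- 2 hypoxia genes did. DESeq2 called 6 and 2 higher. The call of Higd1a (log2 -0.75 to -0.54 over the 8 left-out libraries) was lost without replicate 1 of WT PD1+Tim3- or either WT PD1+Tim3+ library.

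Ribosomal protein genes fell in WT PD1+Tim3+ cells, 61 of 85 tested with 0 higher and a median of -0.88. Rplp1, for a protein of the ribosomal stalk, stood at 4036 and 3992 CPM in PD1+Tim3- and 1908 and 2007 CPM in PD1+Tim3+ libraries (-1.04 ± 0.23, adjusted p 0.0108). Rps19, of the small subunit, fell from 3177 and 2902 to 1327 and 1388 CPM (-1.16 ± 0.21, adjusted p 0.00543), and Rpl34, of the large subunit, from 1187 and 937 to 308 and 361 CPM (-1.67 ± 0.31, adjusted p 0.005697). Both subunits were thus lower, with no overlap between the groups for these 3 genes. Together the genes took 13.5% and 15.04% of counts in PD1+Tim3- libraries and 10.7% in both PD1+Tim3+ libraries. The nuclear genes of the respiratory chain fell in 22 of 70, with 1 higher and a median of -0.32, for example Atp5e, a subunit of ATP synthase, from 319.6 and 267 to 114 and 126 CPM (-1.29 ± 0.29), and Ndufa1, of complex I, by 1.13 on the log2 scale. Ribosome biogenesis genes fell in 14 of 32 with 0 higher and a median of -0.33, among them Npm1, for nucleophosmin, from 1682 and 1625 to 1105 and 1114 CPM (-0.58 ± 0.11) and Ncl, for nucleolin, from 1173 and 1074 to 691 and 661 CPM (-0.73 ± 0.14). Ribosomal RNA counted as Rn45s went the other way, from 13826 and 12421 to 30779 and 36223 CPM (1.35 ± 0.15, adjusted p 5.12e-04). Rn18s, for a mature ribosomal RNA, rose by 1.47 on the log2 scale. The Rn45s entry spans the mature sequences too, so its counts do not measure the precursor alone. What part of them is precursor was not tested. The counts of these 3 groups fell when any 1 WT library was left out, which leaves 1 library in its population. The count over all tested genes fell in these fits too. Without replicate 1 and 2 of WT PD1+Tim3- 29 and 52 ribosomal protein genes fell, and without replicate 1 and 2 of WT PD1+Tim3+ 2 and 7, while the median stayed between -0.93 and -0.86. For the respiratory chain the 22 became 0, 19, 0 and 0 in that order, and for ribosome biogenesis the 14 became 6, 11, 0 and 1. Many of their transcripts are short, and across tested genes the median log2 fold change was -0.02 under 700 bases, 0.08 from 700 to 1000 bases and -0.09 over 4000 bases. With offsets for transcript length the ribosomal median was -0.80. The part of transcript length in the result was not tested further. Rplp1 (log2 -1.07 to -1.004 over the 8 left-out libraries), Atp5e (-1.41 to -1.14) and Ndufa1 (-1.35 to -0.91) lost their call when replicate 1 of WT PD1+Tim3- or either WT PD1+Tim3+ library was left out. Rps19 (-1.23 to -1.09), Npm1 (-0.60 to -0.54) and Ncl (-0.80 to -0.66) did not pass without either WT PD1+Tim3+ library. The call of Rpl34 (-1.83 to -1.48) was lost without replicate 1 of WT PD1+Tim3+.

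Genes of antigen presentation and interferon rose in part. MHC class I presentation genes were called higher in 9 of 20 with 0 lower and a median of 0.41, among them the class I heavy chain genes H2-K1 at 2101 and 2319 against 3094 and 3156 CPM (0.50 ± 0.14) and H2-D1 at 1307 and 1397 against 1907 and 1960.2 CPM (0.52 ± 0.14). B2m, for the light chain they share, was not called (0.28 ± 0.11, adjusted p 0.119). The class I genes are near-identical in stretches, so reads could be split between them. Of 30 type I interferon response genes 6 rose and 2 fell, with a median of 0.21. Mx1, an antiviral GTPase, rose from 25.2 and 22.4 to 36.2 and 41.6 CPM (0.71 ± 0.15), and Ifi27l2a, for a small mitochondrial protein, fell from 228 and 197 to 96.2 and 94.6 CPM (-1.15 ± 0.20). Ifitm1, for an antiviral membrane protein whose sequence is close to that of others in its family, rose from 4.41 and 5.18 to 24.7 and 21.6 CPM (2.27 ± 0.18, adjusted p 4.40e-05). With a WT library left out 1, 1, 1 and 0 of the 30 genes rose, and 0 class I genes rose without replicate 1 of WT PD1+Tim3- or replicate 2 of WT PD1+Tim3+, 1 without replicate 1 of WT PD1+Tim3+. H2-K1 (log2 0.44 to 0.57 over the 8 left-out libraries) lost its call when any 1 of the 4 WT libraries or either labelled dKO PD1+Tim3- library was left out. H2-D1 (0.48 to 0.56) did not pass without replicate 1 of WT PD1+Tim3- or either WT PD1+Tim3+ library. The call of Mx1 (0.61 to 0.81) was lost without replicate 2 of WT PD1+Tim3+. Ifi27l2a (-1.26 to -1.04) lost its call when either WT PD1+Tim3+ library was left out.

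MHC class II genes, which mark dendritic cells, rose at low levels. H2-Aa had 7 and 5 reads in WT PD1+Tim3- and 31 and 60 in WT PD1+Tim3+ libraries. It, H2-Ab1 and H2-Eb1 passed the filter on low counts through PD1+Tim3+ libraries alone. Being tested thus favoured a rise for these genes, and their part in the counts below is no support. H2-Aa stood at 0.995 and 1.04 CPM in PD1+Tim3- and 5.27 and 4.28 CPM in PD1+Tim3+ libraries (2.18 ± 0.38, adjusted p 0.00449), and Cd74, for the invariant chain, at 5.97 and 5.804 against 19.4 and 16.4 CPM (1.58 ± 0.21, adjusted p 0.00133). Of the 14 genes of the dendritic cell and class II list 7 were tested and 5 rose, and 3 rose when replicate 1 of WT PD1+Tim3- was left out. Their summed level, in CPM on unscaled totals, was 35.5 and 34.8 in PD1+Tim3- and 96.0 and 85.3 in PD1+Tim3+ libraries, of which Itgax was the largest part in each library. Clec9a, which defines a dendritic cell type, had 0, 0, 4 and 0 reads in the WT libraries, and Flt3 had 11, 5, 6 and 14. The 10 NK cell genes summed to 96.6 and 110.6 against 222.2 and 218.0 CPM, of which Gzma made 33.3 and 31.9 against 126 and 127 CPM. The 12 genes of B16 melanoma cells summed to 57.9 and 45.8 against 36.8 and 39.9 CPM, with 4, 4, 4 and 1 of them at 0 reads in the order of the libraries, and 14 macrophage and monocyte genes to 21.5 and 30.4 against 32.4 and 31.4 CPM, where Csf1r, which defines macrophages, had 0, 1, 1 and 4 reads. The 6 erythroid genes summed to 7.28 and 3.54 against 36.6 and 6.71 CPM, the highest in replicate 1 of PD1+Tim3+. Foxp3, which defines regulatory T cells, had 3 and 1 reads in PD1+Tim3- and 15 and 32 in PD1+Tim3+ libraries. What part cells of these kinds have in the WT changes was not tested. H2-Aa (log2 2.06 to 2.36 over the 8 left-out libraries) did not pass without replicate 1 of WT PD1+Tim3-.

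Vim, for the intermediate filament vimentin and outside the lists, stood at 121 and 134 CPM in PD1+Tim3- and 422 and 387 CPM in PD1+Tim3+ libraries (1.67 ± 0.13, adjusted p 3.59e-05). Of 19 galectins, S100 proteins and annexins 8 rose and 0 fell, with a median of 0.38. Anxa1, for a membrane-binding protein that limits inflammation, rose from 12.1 and 12.9 to 50.8 and 47.4 CPM (1.98 ± 0.17, adjusted p 7.76e-05) and Anxa2 from 110.3 and 129 to 282 and 289 CPM (1.26 ± 0.13, adjusted p 2.69e-04). Both replicates of each population lay close together in these 3 genes. S100a4 rose from 109 and 83.3 to 205 and 180.1 CPM (0.998 ± 0.21, adjusted p 0.00918), while Lgals1, for galectin-1, was not called, at 233 and 204 against 296 and 275 CPM (0.38 ± 0.14, adjusted p 0.0916). Actb, for beta actin, stood at 2928 and 3264 against 4584 and 4700.5 CPM (0.58 ± 0.13). The 8 genes fell to 4 without replicate 1 of WT PD1+Tim3+. The call of S100a4 (log2 0.82 to 1.22 over the 8 left-out libraries) was lost without replicate 1 of WT PD1+Tim3+. Actb (0.52 to 0.66) lost its call when replicate 1 of WT PD1+Tim3- or either WT PD1+Tim3+ library was left out.

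Of 24 genes of the BCL2 family and apoptosis 8 rose, 0 fell and 16 were not called, with a median of 0.32. Bak1, which opens the outer mitochondrial membrane in apoptosis, rose from 57.9 and 64.9 to 104 and 104 CPM (0.77 ± 0.13, adjusted p 0.00369), and Bcl2l1, for the survival protein BCL-XL, from 21.8 and 24.7 to 38.3 and 35.8 CPM (0.68 ± 0.12, adjusted p 0.00464). The list therefore holds risers that promote and that block cell death. Bcl2 was not called, at 133 and 122 against 131 and 131 CPM (0.04 ± 0.11, adjusted p 0.816). With replicate 1 of WT PD1+Tim3- left out 2 rose, and with replicate 1 or 2 of WT PD1+Tim3+ left out 1 or 3. Bcl2l1 (log2 0.59 to 0.76 over the 8 left-out libraries) did not pass without replicate 1 of WT PD1+Tim3- or replicate 1 of WT PD1+Tim3+.

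**Figure D4:**
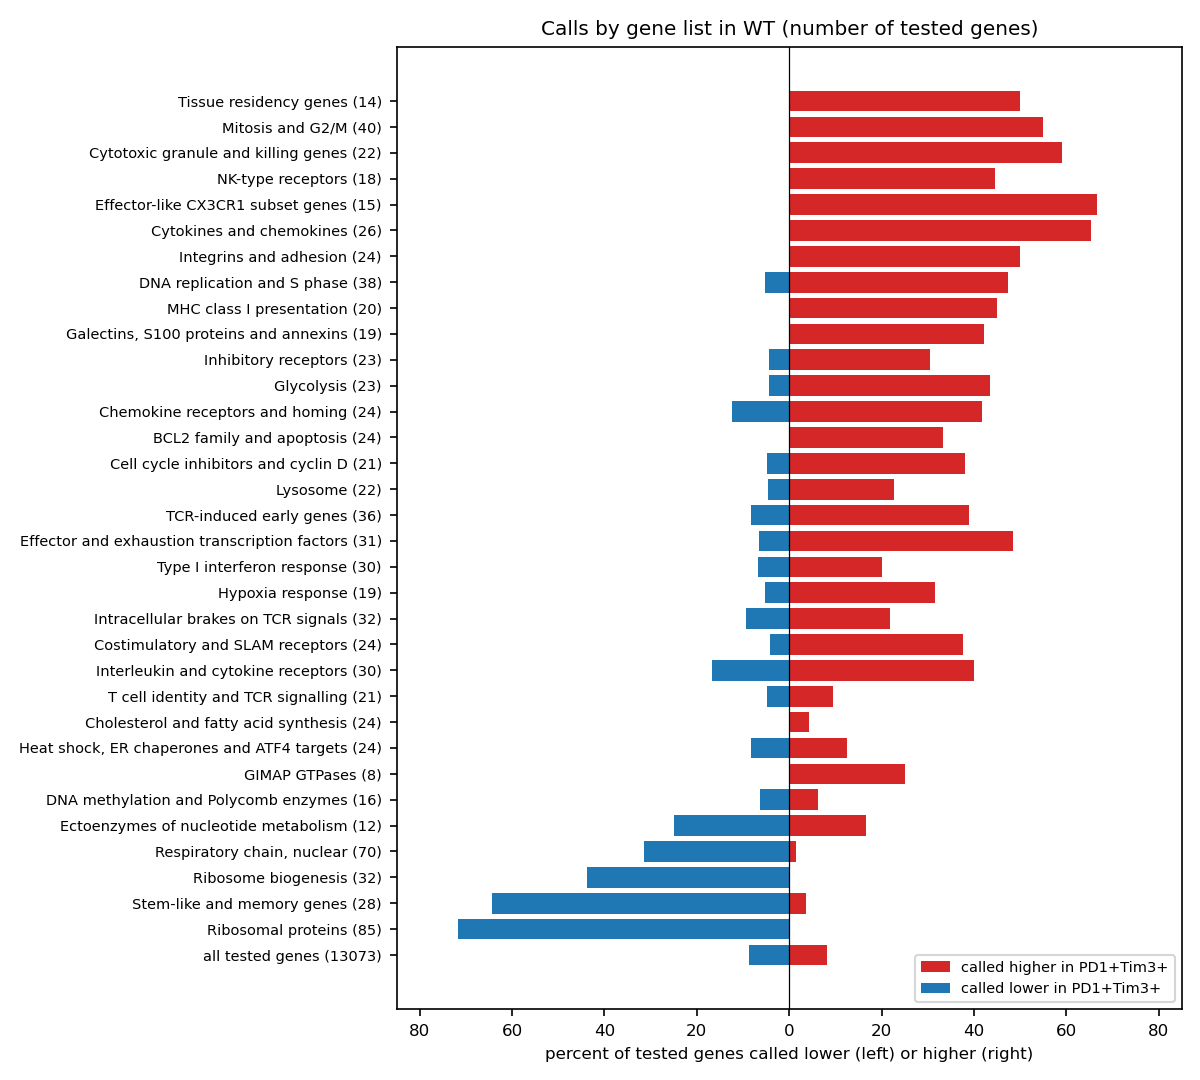
Percent of the tested genes of each list called higher (right, red) or lower (left, blue) in WT PD1+Tim3+ cells, with the number tested in parentheses and all 13073 tested genes at the bottom (8.25% higher, 8.76% lower). Ribosomal protein and stem-like lists extend furthest to the left and the CX3CR1 and cytokine lists furthest to the right.

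With the share of the shared-profile set as a covariate all the main lists held fewer calls. Cytotoxic genes rose in 6, galectins, S100 proteins and annexins in 5, cytokines and cytokine receptors in 4 each, and effector transcription factors, CX3CR1 subset genes and chemokine receptors in 3 each. Mitosis, residency and cell cycle inhibitor genes rose in 2 each, and NK-type receptors in 1. The 1 inhibitory receptor that rose was Havcr2, the gene of the gate. Stem-like genes fell in 4 and chemokine and cytokine receptors in 1 each. No gene of the S phase, early T cell receptor, brake, integrin, costimulatory, glycolysis, hypoxia, interferon, MHC class I, class II, BCL2, respiratory chain, ribosomal protein or ribosome biogenesis lists was called. The covariate itself differs between the populations, so the drop in calls alone does not show smaller changes. Of the list medians 13 stayed within the spread between pairs of WT libraries, 21 moved past it and 4 changed sign. Medians with the covariate were 0.86 for mitosis, 0.63 for integrins and -0.39 for stem-like genes, near those without it. They were nearer to none for ribosomal protein (-0.57), MHC class I (0.17) and glycolysis genes (0.22).

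By size of change, and outside the lists above, the genes that rose most were led by Adam8, a membrane protease of leukocytes, from 4.98 and 7.26 to 42.5 and 37.3 CPM (2.73 ± 0.18, adjusted p 1.31e-05). Serpine2, for a secreted protease inhibitor, rose from 12.8 and 9.74 to 55.1 and 59.2 CPM (2.32 ± 0.14, adjusted p 1.29e-05), and Fgl2, for a secreted protein that binds an inhibitory Fc receptor, from 29.6 and 25.5 to 128 and 118 CPM (2.15 ± 0.15, adjusted p 1.80e-05). These 3 rose by over 4-fold. Lat2, for an adaptor of immune receptors, stood at 2.42 and 3.11 against 15.5 and 13.1 CPM (2.37 ± 0.24), Osbpl3 at 8.53 and 9.33 against 44.04 and 36.9 CPM (2.17 ± 0.16) and Tmem163, for a zinc transporter, at 2.13 and 2.07 against 10.03 and 10.7 CPM (2.30 ± 0.26). The largest fall under the same rule was that of Tmem108, for a membrane protein, from 11.2 and 8.91 to 2.38 and 2.21 CPM (-2.15 ± 0.29, adjusted p 0.00143). Of the 15 largest falls 8 belong to the shared-profile set. Several are known from other tissues, such as Myog, the muscle factor myogenin, at 24.7 and 17.4 against 5.95 and 6.36 CPM (-1.78 ± 0.27), Bfsp1, for a filament protein of the lens, at 87.2 and 49.3 against 19.04 and 23.1 CPM (-1.69 ± 0.27), and Glra2, for a glycine receptor of neurons, at 21.8 and 13.5 against 5.101 and 5.78 CPM (-1.70 ± 0.28). In each the first PD1+Tim3- replicate is the highest library.

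The libraries labelled dKO give a second pair of the same populations that shares no sample with the WT pair, though both contrasts rest on 1 estimate of the spread. Nr4a1 was not lower in them than in WT, at 1330.5 and 1488 CPM in PD1+Tim3- and 1194 and 1175 CPM in PD1+Tim3+ libraries. Counts over a whole gene may not show the loss of a floxed exon. That loss was not tested, and these libraries are named by their label. In them 1298 genes were called, 9.93% of those tested, with 132 and 290 called when replicate 1 or 2 of PD1+Tim3- labelled dKO was left out, 772 without replicate 1 of PD1+Tim3+ labelled dKO and 796 without either WT PD1+Tim3+ library. Of the genes called in WT 40.3% were called there in the same direction, 428 higher and 468 lower in both, and these make up 69.0% of the genes called under the dKO label. In opposite directions 7 genes were called. The sign was shared by 89.0% of genes called in WT, against 67.5% of all tested genes. The difference between the population contrasts was called for 0 genes by edgeR's quasi-likelihood test (0%) and 0 by limma-voom, against 109 by DESeq2 and 1320 at an unadjusted p under 0.05. It was called for 323 genes when replicate 1 of PD1+Tim3+ labelled dKO was left out. No change is therefore called particular to WT here.

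**Figure D5:**
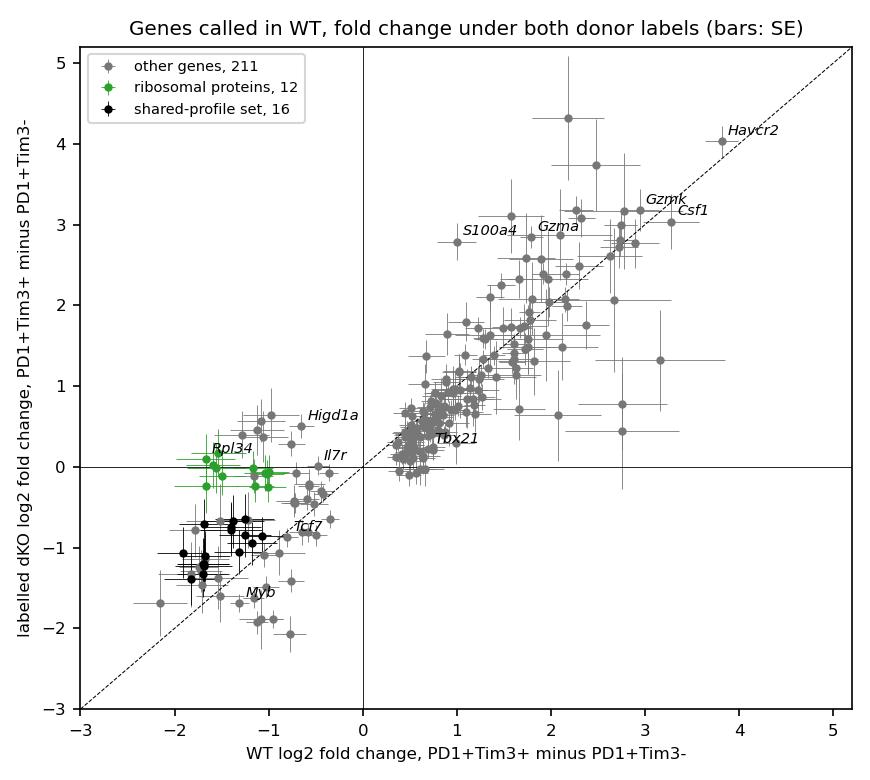
Log2 fold change of PD1+Tim3+ over PD1+Tim3- in WT (horizontal axis) and in the libraries labelled dKO (vertical axis) for 239 called genes taken by the rule for named genes, with SE bars and the line of equal change. Havcr2 and Gzmk lie near the line, and ribosomal protein genes (green) are below 0 in WT and near 0 in the libraries labelled dKO.

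Effector and stem-like genes had these values under the 2 labels. Gzmb stood at 2.39 ± 0.14 in the libraries labelled dKO against 2.16 ± 0.13 in WT, Ifng at 1.52 ± 0.11 against 1.61 ± 0.11, and Entpd1 at 2.73 ± 0.27 against 2.72 ± 0.21. Tcf7 stood at -0.87 ± 0.11 against -0.80 ± 0.11. The differences between the labels were -0.23 ± 0.18 for Gzmb, 0.08 ± 0.16 for Ifng and 0.07 ± 0.16 for Tcf7, with adjusted p from 0.738 to 0.913. Ccr7 stood at -0.95 ± 0.11 under the dKO label and -0.17 ± 0.10 in WT, and Lgals1 at 1.78 ± 0.15 and 0.38 ± 0.14, differences of 0.78 ± 0.15 and -1.39 ± 0.20 that did not pass (both adjusted p 0.2002). Under the dKO label 681 of all 13073 tested genes were called higher and 617 lower. Mitosis genes were called higher there in 27 of 40 with a median of 1.26, and stem-like genes lower in 16 of 28 with a median of -0.46. Galectins, S100 proteins and annexins were called higher in 13 of 19 with a median of 1.16.

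Ribosomal protein, respiratory chain and glycolysis genes had other values there, and the difference between the labels was tested per gene and not for a group. The counts below stand beside 681 genes called higher and 617 lower of all 13073 tested under the dKO label. Ribosomal protein genes were called in 1 of 85 upward and 1 downward, with a median of -0.08, and Rpl34 stood at 756 and 429.9 against 426 and 851 CPM (0.10 ± 0.31). Its populations overlap there, with the highest and the lowest of the 4 values both in PD1+Tim3+ libraries, and its difference from WT was -1.77 ± 0.43 (adjusted p 0.219). Nuclear respiratory chain genes had a median of 0.32 with 2 higher and 0 lower, where the WT median was -0.32. Glycolysis genes had 0 calls and a median of 0.04. Ribosome biogenesis genes fell in 12 of 32 with a median of -0.36, close to WT. Higd1a rose under the dKO label, from 53.9 and 45.7 to 63.7 and 80.5 CPM (0.51 ± 0.14, adjusted p 0.0493), and is one of the 7 genes called in opposite directions, with a difference of -1.16 ± 0.20 that did not pass (adjusted p 0.2002). The call of Rpl34 (log2 -1.83 to -1.48 over the 8 left-out libraries) was lost without replicate 1 of WT PD1+Tim3+. Higd1a (-0.75 to -0.54) lost its call when replicate 1 of WT PD1+Tim3- or either WT PD1+Tim3+ library was left out.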

How the data were processed

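Bulk RNA sequencing of sorted CD8 T cells was read from 1 deposited table of gene counts with 8 libraries. Per the submitters' processing notes the authors used cutadapt 1.18, Bowtie2 2.2.5 and build mm10, and the sources used here give no counting tool, annotation or use of strand. The table has 1 row without a gene name, which holds the total of each library and was dropped. Groups came from the labels, and no library left the fit. Counts were filtered with filterByExpr (minimum count 10), scaled by TMM and fitted with edgeR 4.0.16 in R 4.3.3 as 4 group means over all 8 libraries, with 4 residual degrees of freedom. The quasi-likelihood test was two-sided, with Benjamini-Hochberg adjustment over all tested genes at 0.05, and an SE is the log2 fold change over the root of F, which is approximate for low counts. The code was tested on simulated data. The labels do not show that replicates are separate experiments, so p-values measure the spread between these samples.

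Named genes are the 15 largest rises and 15 largest falls, and the 10 largest rises and falls in mean CPM, among called genes without overlap and with at least 10 CPM in the higher population, leaving out predicted and clone-named genes. To these come up to 6 called members of each list with the largest change, anchor genes of each list, up to 10 genes called for the difference between the labels, and the sorted or targeted genes. The members, the 44 lists and the alternatives were chosen with earlier results of these data known, and the promoter sequences come from RefSeq on GRCm38.p6. Alternatives were DESeq2 1.42.0, limma-voom (limma 3.58.1), other scaling, filters and dispersions, a replicate block, offsets for transcript length and each library left out. Both alternatives built on the shared-profile set were added after seeing the data. Results for some genes are not reported here.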

Additional observations from a re-analysis of the deposited data

How the results depend on the processing

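With 2 libraries a group, the median SE of 0.18 and 4 residual degrees of freedom limited what could be called, and the smallest called change was 0.31 on the log2 scale. DESeq2 called 1314 genes in WT (486 higher), 426 higher under the dKO label, and 109 for the difference between the labels (4 higher, 105 lower). Robust empirical Bayes gave 350 lower under the dKO label and 4 differences (1 higher, 3 lower), and no filter on low counts gave 331 differences (32 higher, 299 lower). With each library left out in turn, genes called in WT ran from 433 to 2773 (higher 275 to 1396, lower 146 to 1377), under the dKO label from 132 to 1392 (higher 103 to 697, lower 29 to 695), and the differences from 0 to 323 (higher 0 to 20, lower 0 to 303). Without the shared-profile genes there were 28 differences (4 higher, 24 lower). With the log2 share of these genes as a covariate, 55 genes were called in WT (47 higher, 8 lower), 179 under the dKO label (150 higher, 29 lower) and 91 differences (11 higher, 80 lower). Why these counts moved was not tested.

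Correlations of deviations between same-numbered libraries were -0.02 in WT and -0.05 under the dKO label. With 2 libraries a group these values cannot show whether same-numbered samples came from the same mouse. A replicate block within genotype gave 1528 genes in WT, 678 of them higher.

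Among single genes of the text the sign turned with the covariate for Slx1b (0.1504), Dennd6b (0.204), Kif3a (0.234), Nr4a1 (0.0597) and Pdcd1 (0.459). With a library left out it turned for Bcl2 (-0.0165 to 0.117), Eomes (-0.131 to 0.0267), Klrd1 (-0.0299 to 0.0788) and Pdcd1 (-0.431 to 0.158), of which none was called. Some medians near 0 also turned. With the covariate they were -0.0199 for T cell identity, 0.0675 for ectoenzymes, -0.00561 for heat shock genes and 0.401 for B16 genes. Left-out libraries gave -0.000503 to 0.0666 for GIMAP genes, -0.0422 to 0.0581 for DNA methylation, -0.00366 to 0.0432 for heat shock and -0.0678 to 0.111 for B16. Length offsets gave -0.0246 for DNA methylation and -0.0208 for heat shock, and GIMAP genes stood at -0.00117 without the shared-profile genes. The causes were not tested.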

Other observations

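Lists not described above had these calls in WT, against 8.25% higher and 8.76% lower over all tested genes. Lysosome genes rose in 5 of 22 and fell in 1, with a median of 0.29, among them Ctsd, for the protease cathepsin D, from 174 and 189 to 320.4 and 321 CPM (0.82 ± 0.12, adjusted p 0.00252 by edgeR's quasi-likelihood test). Heat shock, ER chaperone and ATF4 target genes rose in 3 of 24 and fell in 2, with a median of 0.02, and Hspe1, for the partner of the mitochondrial chaperonin, fell from 388 and 369 to 227 and 237 CPM (-0.71 ± 0.14). Cholesterol and fatty acid synthesis genes rose in 1 of 24 with a median of 0.09. DNA methylation and Polycomb enzymes rose in 1 of 16 and fell in 1, and Uhrf1, which recruits the maintenance methyltransferase, rose from 16.6 and 21.6 to 28.7 and 33.5 CPM (0.74 ± 0.16). The 8 GIMAP genes, GTPases of lymphocytes, rose in 2 with a median of 0.02. T cell identity and receptor signalling genes were called in 2 of 21 upward and 1 downward, with a median of 0.12, Thy1 at 0.45 ± 0.14 and Ptprc, for CD45, at -0.44 ± 0.12. Most of these counts fell with a WT library left out, which leaves 1 library in its population. With replicate 1 of WT PD1+Tim3- or either WT PD1+Tim3+ library left out 2 lysosome genes and 0 or 1 heat shock genes rose. With any 1 WT library left out 0 GIMAP and 0 cholesterol genes rose, and 0 or 1 T cell identity genes. The 2 heat shock genes that fell became 1 when replicate 1 of WT PD1+Tim3- was left out and 0 when either WT PD1+Tim3+ library was, and the 1 DNA methylation gene that rose became 0 without replicate 1 of WT PD1+Tim3- or replicate 2 of WT PD1+Tim3+. Hspe1 (log2 -0.74 to -0.66 over the 8 left-out libraries) did not pass without either WT PD1+Tim3+ library. The call of Uhrf1 (0.55 to 0.92) was lost without replicate 1 of WT PD1+Tim3- or replicate 2 of WT PD1+Tim3+. Thy1 (0.34 to 0.57) lost its call when replicate 1 of WT PD1+Tim3-, either WT PD1+Tim3+ library or either labelled dKO PD1+Tim3- library was left out. Ptprc (-0.49 to -0.39) did not pass without any 1 of the 4 WT libraries or either labelled dKO PD1+Tim3- library. DESeq2 did not call Thy1.

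Zbtb7b, which encodes ThPOK, the factor of the CD4 lineage, rose from 9.53 and 10.6 to 21.8 and 19.2 CPM in these CD8 cells (1.02 ± 0.18, adjusted p 0.00471). Izumo1r, for folate receptor 4, fell from 50.05 and 61.8 to 32.3 and 32.99 CPM (-0.77 ± 0.14, adjusted p 0.00471). Under the dKO label the values were 1.18 ± 0.21 and -1.41 ± 0.15. The summed level of the 8 CD4 and regulatory T cell genes was 479.4 and 549.0 CPM in PD1+Tim3- and 703.9 and 661.7 CPM in PD1+Tim3+ libraries on unscaled totals, most of it Ctla4 and Il2ra, and the part of such cells was not tested. The call of Zbtb7b (log2 0.94 to 1.13 over the 8 left-out libraries) was lost without replicate 1 of WT PD1+Tim3-. Izumo1r (-0.91 to -0.61) lost its call when replicate 1 of WT PD1+Tim3+ was left out.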
